A study of Mus musculus with 8 samples.

Results

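Lungs of Wfdc2-null (Wfdc2 GFP/GFP) fetuses were compared with wild-type (+/+) lungs at E18.5, the day before mice are usually born, when the airspaces still hold fluid. The comparison used 4 of the 8 libraries, 2 of each genotype. Of 25965 genes in the deposited table, 9422 reached an average of 0.5 RPKM, reads per kilobase of gene scaled to the depth of the library, across both stages. Genes were ranked by the difference of the mean log2 RPKM wherever both GFP/GFP values lay outside both +/+ values, which placed 2568 genes in the higher ranking and 867 in the lower one, while 5987 genes overlapped. Because the rule uses only this arrangement and the size of the difference, the ranking is a description, and the test of each gene is given apart from it. Next to the limit on level, Asap3 and Bcr were kept, with differences of 0.40 and 0.30 on the log2 scale, and Amn1 (0.4994 RPKM) and Pcolce2 (0.4999 RPKM) were left out, with differences of 0.32 and −1.13.

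The study sequenced total RNA of whole mouse lung from duplicate animals at E18.5 and at P1.5, after birth. In the GFP/GFP group both alleles carry an IRES-EGFP cassette with a polyadenylation signal in place of part of exon 1 and exon 2 of Wfdc2. The allele was made in TT2 embryonic stem cells and its selection cassette was removed by crossing with CAG-Cre mice. The +/+ group carries neither the cassette nor the deletion, and no treatment separates the groups. The gene is lost in every cell of the body in this model, so a value of whole lung joins changes within cells with changes in the number of cells of a type, which cannot be told apart here.

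Wfdc2 encodes a small secreted protein with whey acidic protein (WAP) domains, a fold stabilised by disulphide bonds that is shared with several protease inhibitors. It is made by secretory cells of the airway and by other epithelia. Late in gestation the lung thins its walls, alveolar type II cells store surfactant for the first breath, type I cells flatten, and club and ciliated cells line the airways. Fetal tissue matures in low oxygen, in which hypoxia-inducible factors are active, and innate defence genes such as the interferon-stimulated genes are kept at a low tone until they are needed.

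Wfdc2 lies at chr2:164562413-164568510 on the plus strand of mm10. It had 5.26 and 5.53 log2 RPKM in the +/+ libraries and −7.98 and −7.48 log2 RPKM in the GFP/GFP libraries at E18.5. These values stand for 8038 and 8791 reads against 0 and 1 read. Pooled over the libraries, the level was 17049-fold lower in GFP/GFP lung, with a 95% counting interval from 3060-fold to 673432-fold. That size rests on 1 read. With a floor of 3 reads in each GFP/GFP library, the level was at least 2814-fold lower. Exon 2 of Wfdc2-201, at chr2:164563308-164563451, is shown because the knock-in removes it. It is given on the plus strand from the GENCODE M21 transcript, all in lower case, and is 144 bases long.
Wfdc2 exon 2: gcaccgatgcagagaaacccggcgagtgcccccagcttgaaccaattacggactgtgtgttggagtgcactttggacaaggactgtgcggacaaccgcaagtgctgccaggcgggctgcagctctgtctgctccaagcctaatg

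The E18.5 libraries held 29246230 to 37209368 reads, and the P1.5 libraries started at 19457663. A count of 3 reads, taken as the limit of detection, stands for 0.0806 to 0.154 RPM over the 8 libraries. Intervals and this floor cover counting error only. In each genotype at E18.5, 1 animal was female and 1 male by Xist, the RNA that coats the inactive X chromosome (14602 and 12 reads in +/+, 90980 and 13 in GFP/GFP), and by the Y-linked gene Ddx3y (1 and 2175 reads, then 2 and 1042). Replicate 1 was the female and replicate 2 the male in both genotypes, which the labels do not state. The +/+ libraries differed from each other by a median of 0.128 on the log2 scale over all genes tested, with 71 genes more than 1 apart. The GFP/GFP libraries differed by a median of 0.540, with 1839 genes more than 1 apart, and the group means by a median of 0.233. GFP/GFP replicate 1 stood apart in many of the lists described here, so values are given by library. Without the genes of chromosomes X and Y, 2490 genes were higher and 834 lower by the rule of the ranking. Both E18.5 +/+ libraries also held a few reads of spermatid genes, 315 and 268 in all over 24 genes under the filter, which were at 0 or 1 read in every other library.

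Differences between the genotypes at E18.5 were mostly small, and Wfdc2 was the single gene that passed the test. With a limma moderated test over all 9422 genes, Wfdc2 differed by −13.12 on the log2 scale (SE 1.05, limma adjusted p = 0.00219), a size that rests on the 0.9 read entered for a gene without reads. It was not called when a GFP/GFP library was left out (limma adjusted p = 0.219 without replicate 1 and 0.0653 without replicate 2) or after median centring (0.0602). Called genes were thus 0.0106% of those tested, and 0 genes were called higher. At an unadjusted p under 0.05 limma gave 313 higher and 36 lower of the 9422 genes. Together these are fewer than the share of 0.05 that this threshold is expected to pass where no gene differs. Their number alone therefore does not show an effect of genotype. Limma's voom on reads recovered from the values also called 0 genes higher and 1 lower. For 2044 genes (21.7%) the 95% interval of the difference lay within 1 log2 of 0. For most genes a difference of 2-fold was therefore not excluded with 2 libraries a group. The median distance from an estimate to the end of its interval was 0.961. An exact two-sided permutation test of 2 against 2 cannot go below p = 0.33 for a single gene. The groups are apart in the same share, 0.33, of all arrangements of 4 libraries as 2 against 2. Here 63.5% of genes overlapped, so the number of ranked genes alone does not measure an effect of genotype.

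Over all genes, 27.3% were higher in both GFP/GFP libraries than in both +/+ libraries and 9.2% were lower in both. The higher genes had a median difference of 0.48 and the lower ones of −0.35 on the log2 scale. At least 1 on this scale separated the means of 324 higher and 75 lower genes, and at least 2 separated 31 and 17. The median of all 9422 genes was 0.08, which median centring moved to −0.10 and quantile normalization to −0.04. The higher genes made up 74.8% of the ranked genes as deposited, 41.1% after median centring (1519 higher, 2178 lower) and 49.1% after quantile normalization (1878 higher, 1948 lower), so small differences are to be read against that shift. Counts of a list after median centring are to be read beside those 1519 and 2178 of 9422 genes. Genes of the higher ranking had a lower level in +/+ lung (median 0.51 log2 RPKM) than those of the lower ranking (median 1.4), against 0.99 for all genes. The ranking used these same +/+ values and the limit on level counted both genotypes. This order therefore follows in part from the selection. Of the 8514 tested genes placed in GENCODE M21, 43 were long intergenic RNAs, of which 23 were in the higher ranking and 1 in the lower.

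**Figure D1:**
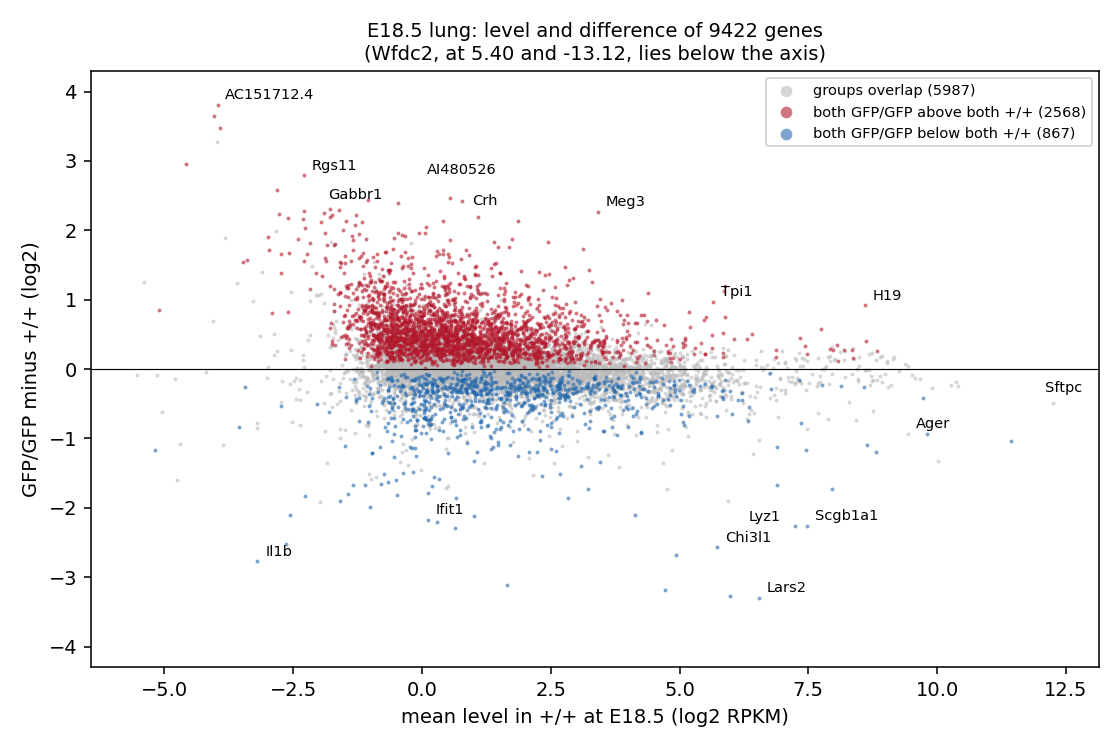
Each point is 1 of 9422 genes, with the mean level in +/+ lung at E18.5 (log2 RPKM) on the x axis and the difference GFP/GFP minus +/+ (log2) on the y axis. Red marks the 2568 genes with both GFP/GFP libraries above both +/+ libraries, blue the 867 below and grey the 5987 that overlap, and most red points sit between 0 and 1.

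At the high end of the ranking, 2 long noncoding RNAs stood out by their depth. Meg3 (chr12:109541001-109571726), an imprinted RNA expressed from the maternal chromosome, had 3.39 and 3.46 log2 RPKM in +/+ lung and 5.47 and 5.91 in GFP/GFP lung. Both GFP/GFP values were far above both +/+ values, and the reads were 11058 and 10539 against 50564 and 54044. The difference was 2.27 (SE 0.33, limma adjusted p = 0.234), and its unadjusted p of 4.97e-05 was the smallest after Wfdc2. AI480526 (chr5:123133723-123141666), a long intergenic RNA, had 0.55 and 0.56 log2 RPKM against 3.22 and 2.83, a difference of 2.47 (SE 0.40, limma adjusted p = 0.242). Meg3 was called after quantile normalization (limma adjusted p = 0.0490).

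Protein-coding genes near this end were Crh, Gabbr1, Rgs11, Acrbp and Tbx6. Crh (chr3:19693401-19695396), the hormone that drives the stress axis and is also made in fetal lung, had 121 and 105 reads in +/+ and 1175 and 314 in GFP/GFP, or 0.82 and 0.76 against 3.98 and 2.43 log2 RPKM. Its level was higher in both GFP/GFP libraries, with replicate 1 above replicate 2. Gabbr1, a subunit of the receptor for the transmitter GABA, had −0.52 and −0.41 against 2.79 and 1.07 log2 RPKM. Rgs11, a regulator of G-protein signalling, had −1.90 and −2.67 against 0.37 and 0.63 log2 RPKM. Acrbp, a binding protein of sperm proacrosin, had −1.78 and −1.81 against 0.58 and 0.44 log2 RPKM. For these 3 genes the GFP/GFP values did not overlap those of +/+ by more than 1 on the log2 scale. Tbx6, a T-box transcription factor of the embryonic mesoderm, had −2.49 and −2.08 against −0.31 and 0.31 log2 RPKM.

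The remaining genes among the 15 highest, apart from AC151712.4, had at most 107 reads in a library. AC151712.4, assigned to the Y chromosome at 90784738 to 90816464, led the ranking with a difference of 3.81, and its 71 and 62 reads in +/+ and 1172 and 745 in GFP/GFP were present in both sexes. Gm5741 had 0 and 0 reads against 17 and 6, and Gm9843, a processed pseudogene, 1 and 1 against 8 and 20. Slc39a2, a zinc transporter, had 14 and 2 reads against 43 and 40. Rpl10-ps3, Gm14286, Gm13199 and Gm19357 had between 2 and 20 reads in +/+ and between 15 and 107 in GFP/GFP. Over the 15 genes, the median was 27.5 reads per +/+ library and 135 per GFP/GFP library. Reads of pseudogenes and of near-identical copies may be shared with other loci, so these values are uncertain.

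The low end, apart from Wfdc2, held secreted defence and airway genes and a set of loci with very high read counts. Chi3l1 (chr1:134182176-134190181), a chitinase-like protein, had 5.76 and 5.70 log2 RPKM in +/+ and 0.88 and 5.44 in GFP/GFP. Lyz1, a lysozyme, had 7.12 and 7.37 against 3.36 and 6.59 log2 RPKM. Scgb1a1, the secretoglobin that marks club cells, had 7.20 and 7.75 against 3.29 and 7.14 log2 RPKM. In all 3 the value of GFP/GFP replicate 2 was less than 1 log2 under the +/+ values and that of replicate 1 was far under them. Without replicate 1 the difference was −0.29 for Chi3l1, −0.65 for Lyz1 and −0.34 for Scgb1a1, against −2.57, −2.27 and −2.26 with both. Without replicate 2, Chi3l1 and Lyz1 were called (limma adjusted p = 0.00766 and 0.0302). The cytokine gene Il1b had 24 and 23 reads against 1 and 12, the acute-phase gene Saa3 225 and 159 against 12 and 126, and Itih4, an inter-alpha-trypsin inhibitor heavy chain, 73 and 91 against 6 and 34. The histone gene Hist1h1b had 44 and 20 reads against 7 and 6, and Gm17530 had 7 and 8 against 3 and 1.

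Among the largest differences after Wfdc2 were those of Lars2, Kpna1 and 2610528E23Rik, at −3.30, −3.19 and −3.11 on the log2 scale. Lars2, the mitochondrial leucyl-tRNA synthetase, had 439776 and 194762 reads in +/+ and 15647 and 57460 in GFP/GFP. Together with Cdk8 (−2.69), Gm15564 and Camk1d, 6 loci chosen after their values were seen because they varied alike across all 8 libraries, they took 1.90% and 1.003% of the reads of the +/+ libraries and 0.0777% and 0.315% of the GFP/GFP libraries at E18.5. At P1.5 these shares were 1.0% and 0.0573% in +/+ and 0.593% and 0.122% in GFP/GFP. The genotypes did not overlap at E18.5 and overlapped at P1.5. These functionally unlike genes share 1 profile over the libraries, and what gives it was not tested.

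**Figure D2:**
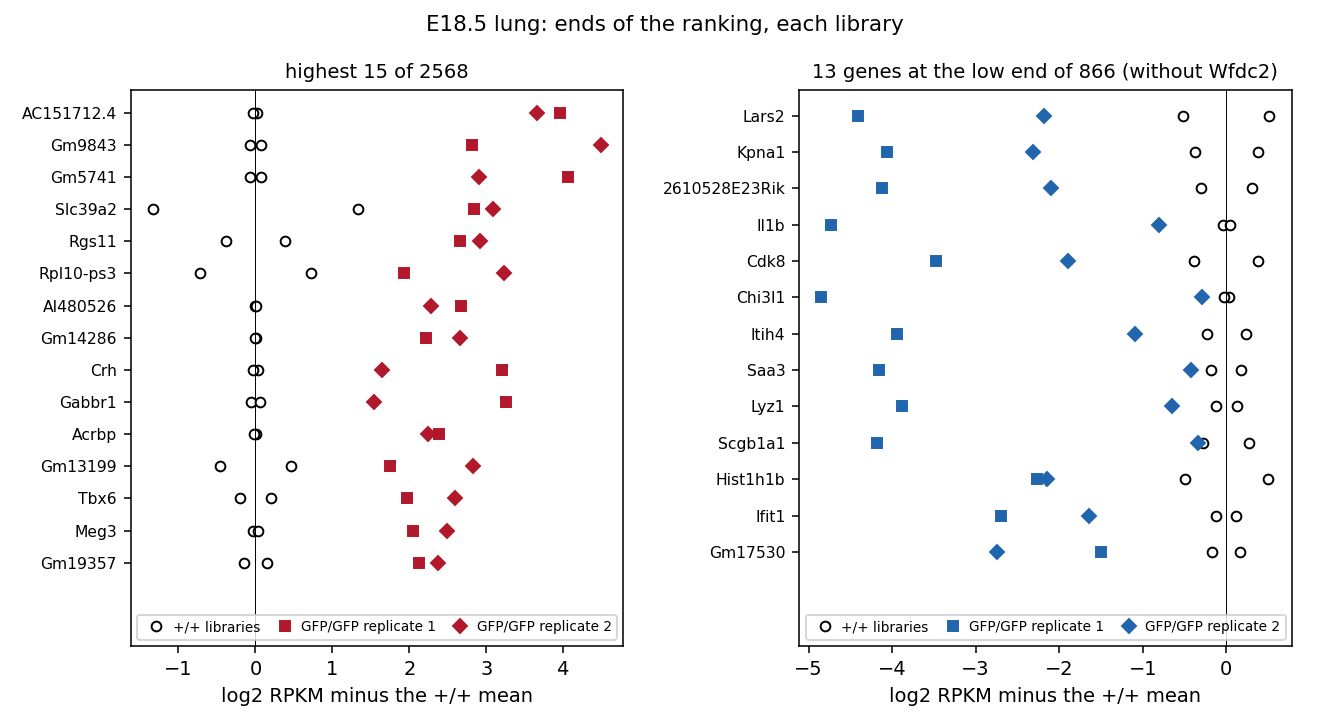
The log2 RPKM of each E18.5 library minus the +/+ mean is plotted for the 15 highest genes (left) and for 13 genes of the low end (right), with open circles for +/+ libraries, squares for GFP/GFP replicate 1 and diamonds for replicate 2. For Chi3l1, Saa3, Lyz1 and Scgb1a1 the diamond sits 0.29 to 0.65 log2 units below the +/+ mean and the square 3.88 to 4.85 units below it.

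Genes of the hypoxia response were higher in GFP/GFP lung in 15 of the 22 members tested (68.2%, beside 27.3% of all genes) and lower in 0. These genes serve glycolysis, glucose uptake, vessel growth and the feedback on hypoxia-inducible factors. The median difference of the list was 0.52, against 0.08 for all genes, and it was 0.53 in GFP/GFP replicate 1 and 0.51 in replicate 2. After median centring 14 members were higher and 1 lower, beside 1519 and 2178 of all 9422 genes. No member passed limma's adjusted threshold.

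Egln3 (chr12:54178981-54203860), the prolyl hydroxylase that is both a target and an inhibitor of hypoxia-inducible factors, had 0.51 and 0.56 log2 RPKM in +/+ and 1.34 and 1.94 in GFP/GFP. Tpi1, the glycolytic triosephosphate isomerase, had 5.6 and 5.70 against 6.64 and 6.61 log2 RPKM. In both genes the genotypes were farther apart than the replicates of either genotype. Pdk1, the kinase that keeps pyruvate out of mitochondria, had 1.08 and 1.0 against 2.35 and 1.39 log2 RPKM. Vegfa, the main growth factor of vessels, had 4.18 and 4.32 against 4.83 and 5.21 log2 RPKM. The 4 differences ran from 0.77 to 1.11, and the glucose transporter Slc2a1 differed by 0.74. The subunits Hif1a and Epas1 and the peptide gene Adm overlapped between the genotypes, with differences of −0.16, −0.49 and −0.89.

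The core of the hypoxia response element, ACGTG, was searched on both strands in the 300 bases around a start held in the RefSeq promoter table (GRCm38.p6), taking for each gene the start nearest to that of the deposited gene and within 1000 bases of it. It was present in 11 of 18 members with such a promoter and in 8 of the 13 that were higher, beside 19.6% of all 32851 promoters and 26.7% of those of 6957 tested genes. A match is a stretch of letters and not a measured binding site. The hypoxia, clock and interferon lists gather known responders, so their excess over all promoters follows in part from the choice of list. That excess cannot speak to the differences in GFP/GFP lung. In the hypoxia list the higher members held the core about as often as the whole list. The stretches of Egln3 and Slc2a1 are shown, since both genes are described here, with the core in capitals and each read along the strand of its gene.
Egln3, chr12:54204079-54204123, minus strand: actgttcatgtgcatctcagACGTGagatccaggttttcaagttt
Slc2a1, chr4:119108689-119108733, plus strand: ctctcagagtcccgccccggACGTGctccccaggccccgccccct

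Of 14 circadian clock genes tested, 7 were higher in both GFP/GFP libraries and 1, the repressor Cry1, was lower (50% and 7.14%, beside 27.3% and 9.2% of all genes). The list's median was 0.25 (0.36 in replicate 1 and 0.62 in replicate 2). Gm129, also called Ciart, a repressor of the CLOCK and BMAL1 factors, had −1.40 and −1.28 log2 RPKM in +/+ and −0.17 and 1.22 in GFP/GFP. Per2 and Per3, repressors of the same factors, had −0.42 and −0.38 against 0.94 and 0.29, and −0.47 and −0.50 against 0.70 and −0.00 log2 RPKM. Per1 had 2.62 and 2.85 against 3.22 and 3.47 log2 RPKM. In all 4 genes both GFP/GFP libraries were above both +/+ libraries. The nuclear receptor gene Nr1d1 overlapped (−1.09 and −0.75 against −2.17 and 0.30 log2 RPKM). The hour at which lungs were taken is not given in the sources used here. The E-box CACGTG, searched in the same way, was found in 4 of 10 promoters of the list and in 2 of the 4 whose genes were higher, beside 7.15% of all promoters and 10.5% of those of tested genes. That of Gm129 is shown because its gene had the largest difference of the list.
Gm129, chr3:95882319-95882364, minus strand: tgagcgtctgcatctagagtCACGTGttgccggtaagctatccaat

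Genes of proliferation were higher in 15 of 37 members tested (40.5%, beside 27.3% of all genes) and lower in 0, with a median of 0.50. Members of mitosis led the list. Kif20a, a kinesin of the dividing cell, had 2.04 and 1.69 log2 RPKM in +/+ and 3.48 and 2.15 in GFP/GFP, and Cenpa, the histone of centromeres, 2.41 and 2.05 against 3.34 and 2.89. The spindle factor Tpx2 and the transcription factor Foxm1 differed by 0.81 and 0.78. The DNA polymerase clamp Pcna overlapped, at 4.89 and 4.88 against 5.08 and 4.74 log2 RPKM. The size of the median rested on 1 library, with 0.87 in replicate 1 and 0.07 in replicate 2. Replicate 1 was above both +/+ libraries in 36 of 37 members, beside 49.9% of all genes, and replicate 2 in 15, beside 58.9% of all genes. After median centring 6 members were higher and 1 lower, beside 1519 and 2178 of all 9422 genes.

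Interferon-stimulated genes were lower in 12 of 25 members tested (48.0%, beside 9.2% of all genes) and higher in 0. The median was −0.80, or −1.38 in GFP/GFP replicate 1 and −0.10 in replicate 2, so the size of the difference came mainly from replicate 1. Without it, replicate 2 was under both +/+ libraries in 13 of 25 members and above both in 9, beside 28.8% and 58.9% of all genes. After median centring 16 members were lower and 0 higher, beside 2178 and 1519 of all 9422 genes. No member passed limma's adjusted threshold.

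Ifit1 (chr19:34640871-34650009), which binds foreign RNA that lacks the host cap, had 0.25 and 0.00 log2 RPKM in +/+ and −2.58 and −1.52 in GFP/GFP, or 373 and 285 reads against 57 and 93. Rsad2, the antiviral enzyme viperin, had 0.77 and 0.55 against −1.75 and −0.64 log2 RPKM. In these 2 genes both GFP/GFP libraries were more than 1 log2 under both +/+ libraries. Isg15, a ubiquitin-like modifier, had 3.40 and 3.06 against 0.16 and 2.83 log2 RPKM, and Ifit3 −0.68 and −0.93 against −3.79 and −1.12. Here replicate 2 was close to +/+. The transcription factor gene Irf9 differed by −0.57 and the RNA sensor gene Ddx58 by −0.22, both without overlap, whereas Irf7 (−1.35) and Stat2 (0.12) overlapped.

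The interferon-stimulated response element, searched as GAAA, any 2 bases and GAAA on both strands, was in 10 of 20 promoters of the list and in 7 of the 9 whose genes were lower, beside 3.44% of all promoters and 2.99% of those of tested genes. Ifit1, Rsad2 and Isg15 are shown with a single match to the element in capitals, since they had the largest differences of the list. The stretches of Ifit1 and Isg15 hold further matches that are not marked.
Ifit1, chr19:34640784-34640833, plus strand: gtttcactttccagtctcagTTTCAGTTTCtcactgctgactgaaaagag
Rsad2, chr12:26456543-26456592, minus strand: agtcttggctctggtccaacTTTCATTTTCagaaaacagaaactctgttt
Isg15, chr4:156200867-156200916, minus strand: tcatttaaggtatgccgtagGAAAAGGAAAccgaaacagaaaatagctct

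Secreted defence and acute-phase genes were lower in 10 of 16 members tested (62.5%, beside 9.2% of all genes) and higher in 0, with a median of −0.96 (−1.50 in replicate 1 and −0.31 in replicate 2). Besides Chi3l1, Saa3 and Lyz1 these included Lcn2, the iron-scavenging lipocalin, at 3.99 and 4.28 log2 RPKM in +/+ against 0.68 and 3.40 in GFP/GFP. Complement component C3 had 2.69 and 2.97 against −0.33 and 2.27 log2 RPKM. Of 20 inflammatory cytokines and chemokines tested, 6 were lower and 3 were higher (30.0% and 15%), with medians of −0.70 and 0.06 in the 2 GFP/GFP libraries.

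Markers of leukocytes were also lower in part. Of 10 neutrophil genes tested 6 were lower (60%, beside 9.2% of all genes), with medians of −0.84 and −0.60 in the 2 GFP/GFP libraries. S100a9, a calcium-binding protein abundant in neutrophils, had 3.54 and 3.51 log2 RPKM in +/+ and 2.58 and 2.67 in GFP/GFP. S100a8, its partner, had 4.68 and 4.70 against 4.05 and 4.43 log2 RPKM, and the collagenase Mmp8 −0.77 and −0.66 against −1.54 and −1.56. The summed level of the 18 neutrophil genes listed was 155 and 164 RPM in +/+ and 70.1 and 108 RPM in GFP/GFP. Members under the filter did not all follow: the granule enzyme Mpo had 0 and 8 reads in +/+ and 19 and 15 in GFP/GFP, and Prtn3 23 and 30 against 74 and 54. Of 16 macrophage and monocyte genes tested 6 were lower (37.5%) and 0 higher, with medians of −0.84 and −0.03. Csf1r, the receptor that defines the lineage, overlapped at 0.68 and 0.84 against 0.31 and 0.74 log2 RPKM, while Ear2, an RNase of eosinophils and macrophages, had 3.97 and 4.02 against 2.46 and 3.86. Among 8 mast cell genes 2 were lower (25.0%, medians −1.54 and 0.05), among 7 genes of MHC class II presentation 2 (28.6%, medians −1.64 and 0.21) and among 5 platelet genes 3 (60%). The part of leukocyte number in the interferon and defence genes was not tested.

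Of 16 alveolar type II genes tested 3 were lower (18.8%, beside 9.2% of all genes) and 0 were higher, and the median was −0.40 (−0.89 in replicate 1 and 0.03 in replicate 2). Replicate 1 was under both +/+ libraries in 14 members and replicate 2 in 4, beside 40.7% and 28.8% of all genes. Sftpc, the most abundant gene in 3 of the 4 libraries, had 491054 and 513689 reads in +/+ and 239772 and 537558 in GFP/GFP. Sftpb had 7.18 and 7.52 against 6.44 and 7.87, Sftpa1 7.65 and 7.71 against 6.43 and 7.67, and Sftpd 4.57 and 4.80 against 2.08 and 4.57 log2 RPKM. In these 4 surfactant protein genes the genotypes overlapped, since replicate 2 reached or passed the lower of the +/+ values, and for Sftpd the lowest +/+ value and the highest GFP/GFP value were the same to 2 decimals. The 3 lower members were Lyz2, Cxcl15 and Lamp3. Lamp3 (chr16:19653381-19706365), a membrane protein of the organelles that store surfactant, had 3.17 and 3.33 log2 RPKM in +/+ and 2.38 and 2.43 in GFP/GFP, with a difference of −0.85 (SE 0.30, limma adjusted p = 1.0) shown by both libraries. Lyz2 had 6.81 and 6.97 against 4.10 and 6.33 log2 RPKM. Of 19 genes of surfactant phospholipid synthesis and transport 2 were higher and 2 lower (10.5% each, beside 27.3% and 9.2% of all genes). Among the higher was Chka, the choline kinase (0.35 and 0.65 against 2.04 and 1.38 log2 RPKM). After median centring, 9 of the 16 type II genes and 10 of these 19 were lower, beside 2178 of all 9422 genes.

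Type I cell genes were lower in 7 of 14 members tested (50%, beside 9.2% of all genes) and higher in 1, Vegfa, with a median of −0.61 (−0.64 in replicate 1 and −0.11 in replicate 2). Akap5, a kinase anchor, had 6.40 and 6.26 log2 RPKM in +/+ and 6.0 and 5.15 in GFP/GFP, with replicate 2 the lower. Rtkn2, rhotekin 2, had 1.13 and 1.39 against −0.13 and 0.99 log2 RPKM. Scnn1g, a subunit of the sodium channel that clears lung fluid at birth, had 1.37 and 1.66 against 0.20 and 1.09 log2 RPKM. The receptor gene Ager (9.30 and 9.58 against 7.59 and 9.42), the water channel gene Aqp5 (4.57 and 4.96 against 1.36 and 4.72) and Hopx (4.29 and 4.33 against 3.65 and 4.40) overlapped between the genotypes.

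Of 13 club cell genes tested 5 were lower (38.5%, beside 9.2% of all genes) and 0 higher, with a median of −0.73 that was −1.41 in replicate 1 and 0.09 in replicate 2. Besides Scgb1a1 these were Chad, Aldh1a1, Cyp2f2 and Cckar. Cyp2f2, a cytochrome P450 of club cells, had 4.05 and 4.43 log2 RPKM in +/+ and 2.79 and 3.89 in GFP/GFP, and Aldh1a1, a retinal dehydrogenase, 1.12 and 1.56 against 0.00 and 0.70. In both genes replicate 2 was under the lower +/+ library by less than the +/+ libraries differed from each other. The secretoglobin genes Scgb3a1 (6.43 and 6.43 against 3.89 and 6.52) and Scgb3a2 (8.59 and 8.91 against 7.35 and 8.95) overlapped. Of 14 ciliated cell genes 3 were lower and 1 higher (21.4% and 7.14%), with medians of −0.72 and 0.08 by library. Foxj1, the master factor of motile cilia, overlapped at 3.77 and 4.19 against 3.05 and 3.88 log2 RPKM. Rsph4a, of the radial spoke, had 0.61 and 0.53 against 0.51 and −0.02.

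Transcription factors of the lung epithelium were apart about as often as all genes: of 23 tested, 7 were higher and 2 were lower (30.4% and 8.70%, beside 27.3% and 9.2%), with a median of 0.04. Nkx2-1, which specifies the lung, had 5.50 and 5.75 log2 RPKM in +/+ and 6.09 and 6.13 in GFP/GFP. Sox9, of the distal tips, had 1.23 and 1.12 against 2.42 and 1.75, whereas Sox2, of the proximal airway, had 1.90 and 2.37 against 1.57 and 1.53 log2 RPKM. The inhibitor Id2 was lower too, at 6.17 and 6.10 against 5.67 and 5.71. After median centring 6 factors were higher and 7 lower, beside 1519 and 2178 of all 9422 genes.

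Of 16 fibroblast genes tested 0 were higher and 2 were lower (12.5%, median −0.06), and Col1a1, the main fibrillar collagen, had 5.91 and 6.12 log2 RPKM in +/+ and 6.37 and 5.73 in GFP/GFP. Of 11 smooth muscle genes 2 were higher (18.2%, beside 27.3% of all genes), among them Acta2, the actin of smooth muscle (3.86 and 3.95 against 4.07 and 4.53). Of 10 pericyte genes 3 were higher and 1 lower (30.0% and 10%). Of 31 collagens and elastic fibre genes 6 were higher and 1 lower (19.4% and 3.23%, under the 27.3% and 9.2% of all genes). Median centring turned these into 2 and 6, beside 1519 higher and 2178 lower of all 9422 genes. Elastin, Eln, overlapped at 6.17 and 6.73 against 5.45 and 6.20 log2 RPKM. Among 23 endothelial genes 2 were higher and 4 lower (8.70% and 17.4%), and 0 and 10 after median centring. Replicate 1 was under both +/+ libraries in 18 of them and replicate 2 in 6, beside 40.7% and 28.8% of all genes. Pecam1, present on all endothelium, had 2.14 and 2.27 against 2.01 and 2.31 log2 RPKM, Sox17, of arteries, 3.04 and 3.43 against 3.52 and 4.35, and Calcrl, a peptide receptor, 2.02 and 2.13 against 1.56 and 1.37. Of 8 mesothelial genes 3 were lower (37.5%, 7 after median centring) and 0 higher.

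Genes of tissues next to the lung and of blood varied between libraries as well as between genotypes. Of 15 cardiac muscle genes tested 3 were higher (20%, under the 27.3% of all genes) and 0 lower, and their summed level, over the 20 genes listed, was 441 and 259 RPM in +/+ and 361 and 973 RPM in GFP/GFP. The median was 0.04 in GFP/GFP replicate 1 and 1.64 in replicate 2. Myh6, the atrial myosin, had 0.26 and −0.96 log2 RPKM in +/+ and 0.79 and 1.04 in GFP/GFP, and Tnnt2, cardiac troponin T, 1.18 and 0.43 against 1.25 and 3.0. Erythroid genes were lower in 4 of 10 members (40.0%, beside 9.2% of all genes), led by Alas2, the haem-synthesis enzyme of red cells, at 3.47 and 3.46 against 1.81 and 2.45. Genes of T and NK cells were near the floor: 0 of the 18 in the table passed the filter, with a summed level of 7.09 and 6.06 RPM against 7.31 and 5.98 RPM. Of 10 B lymphocyte genes 2 passed the filter and 0 were higher or lower. Their list had a summed level of 28.7 and 25.9 RPM against 25.6 and 28.5 RPM. The part of heart muscle and blood in the other lists was not tested.

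Of 16 genes of FGF and hedgehog signalling 5 were higher and 1 lower (31.3% and 6.25%, beside 27.3% and 9.2% of all genes). The ligand Shh had 2.21 and 2.33 log2 RPKM in +/+ and 2.74 and 2.68 in GFP/GFP, and Gli1, the transcription factor it induces, 0.55 and 0.50 against 1.88 and 1.05. After median centring the list had 3 higher and 4 lower members. Of 22 Wnt genes 2 were higher and 2 lower (9.09% each), and of 33 genes of TGF-beta and BMP signalling 3 were higher and 5 lower (9.09% and 15.2%). After median centring 8 Wnt genes and 11 of TGF-beta and BMP signalling were lower. The same centring raised the lower genes from 867 to 2178 of all 9422. Bmp1, a protease that matures collagens, was higher (1.02 and 1.14 against 2.27 and 2.1 log2 RPKM), as were the laminin chain Lama5 (2.47 and 2.7 against 4.2 and 3.35) and Cldn6, a claudin of fetal epithelium (1.47 and 1.20 against 3.34 and 2.25). Among 20 imprinted growth genes 4 were higher (20%, under the 27.3% of all genes) and 0 lower. Apart from Meg3 these were H19 (8.67 and 8.53 against 9.91 and 9.12), its neighbour Igf2, a fetal growth factor (5.12 and 5.09 against 5.78 and 5.34), and Airn (−0.20 and −0.49 against 1.48 and 0.17 log2 RPKM).

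Of 19 NRF2 and antioxidant genes tested 7 were lower and 1 higher (36.8% and 5.26%, beside 9.2% and 27.3% of all genes), with medians of −0.53 in replicate 1 and 0.02 in replicate 2, so that the sign of the median turned without replicate 1. The largest difference was that of Aldh3a1, an aldehyde dehydrogenase (−1.77 and −1.43 log2 RPKM in +/+, −5.20 and −1.79 in GFP/GFP). Of 19 genes of cholesterol synthesis and uptake 6 were lower and 2 higher (31.6% and 10.5%), and their medians of −0.26 and 0.17 differed in sign between the libraries. The glucocorticoid response had 5 higher and 3 lower among 17 (29.4% and 17.6%), with a median of −0.05. A reference list of 37 genes of mitochondrial and ribosomal proteins had 7 higher and 0 lower (18.9% and 0%), a median of 0.05 and, by library, −0.17 and 0.30. That list became 0 higher and 6 lower after median centring and 13 and 4 after quantile normalization, so it marks how far scaling alone can move a list.

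**Figure D3:**
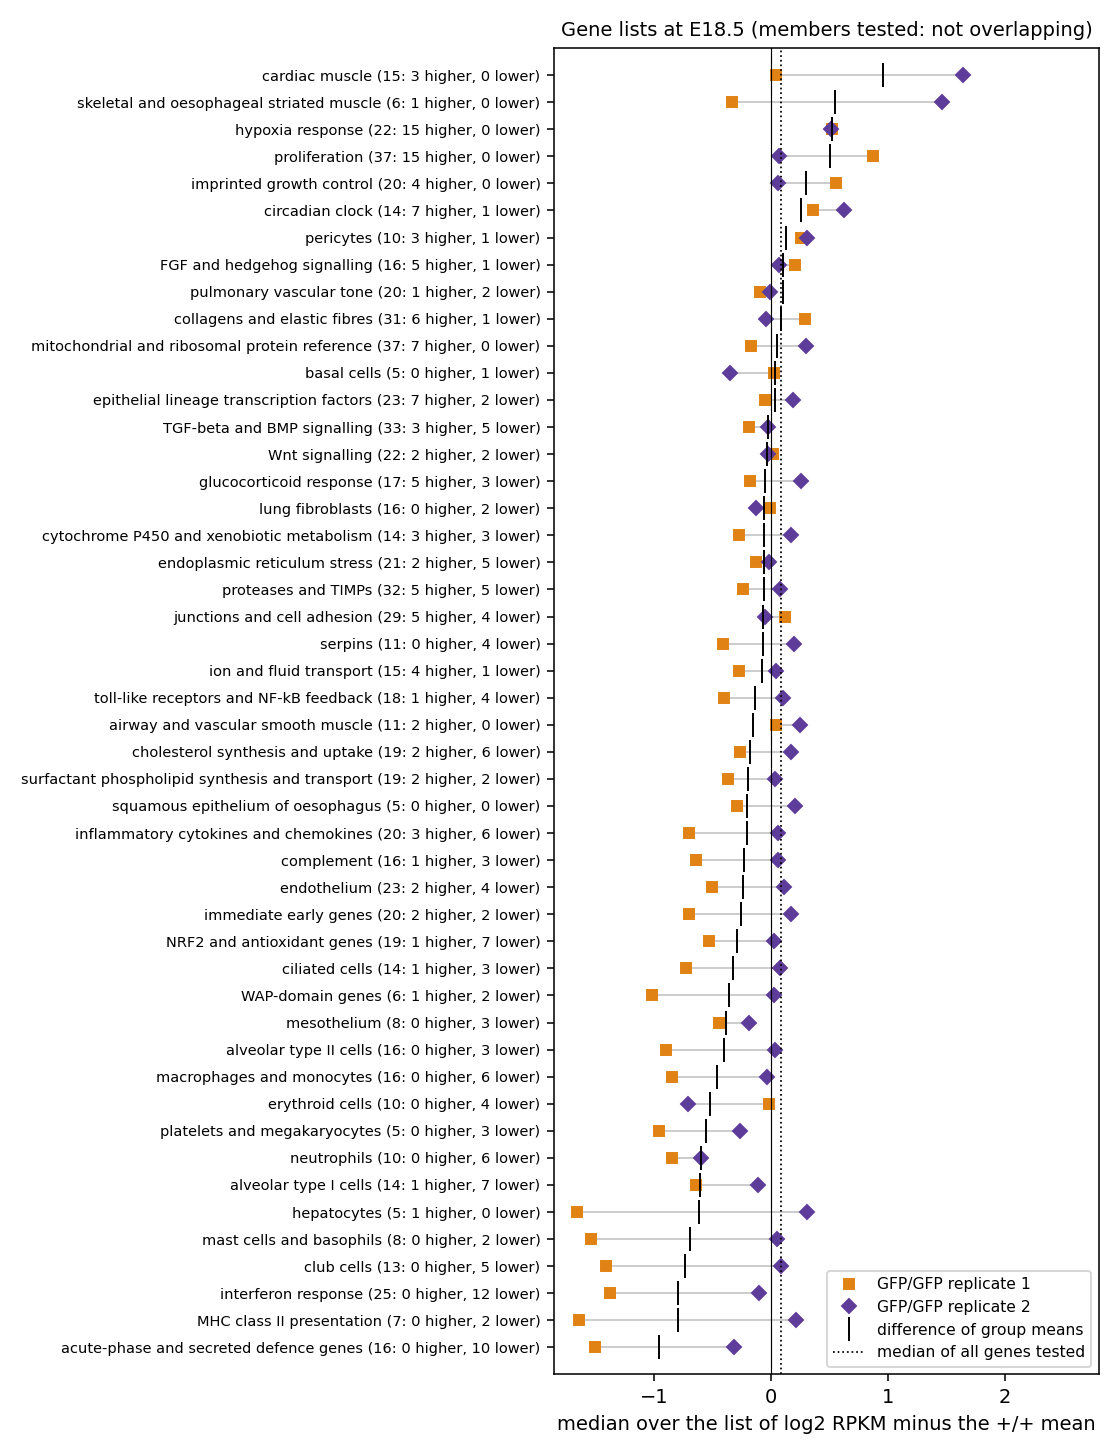
For each gene list with at least 5 members tested, the median over members of log2 RPKM minus the +/+ mean is shown for GFP/GFP replicate 1 (squares), replicate 2 (diamonds) and for the difference of group means (black bars), with the median of all genes as a dotted line. The 2 libraries coincide for the hypoxia response (0.53 and 0.51) and are far apart for interferon (−1.38 and −0.10), club cells (−1.41 and 0.09) and cardiac muscle (0.04 and 1.64).

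**Figure D4:**
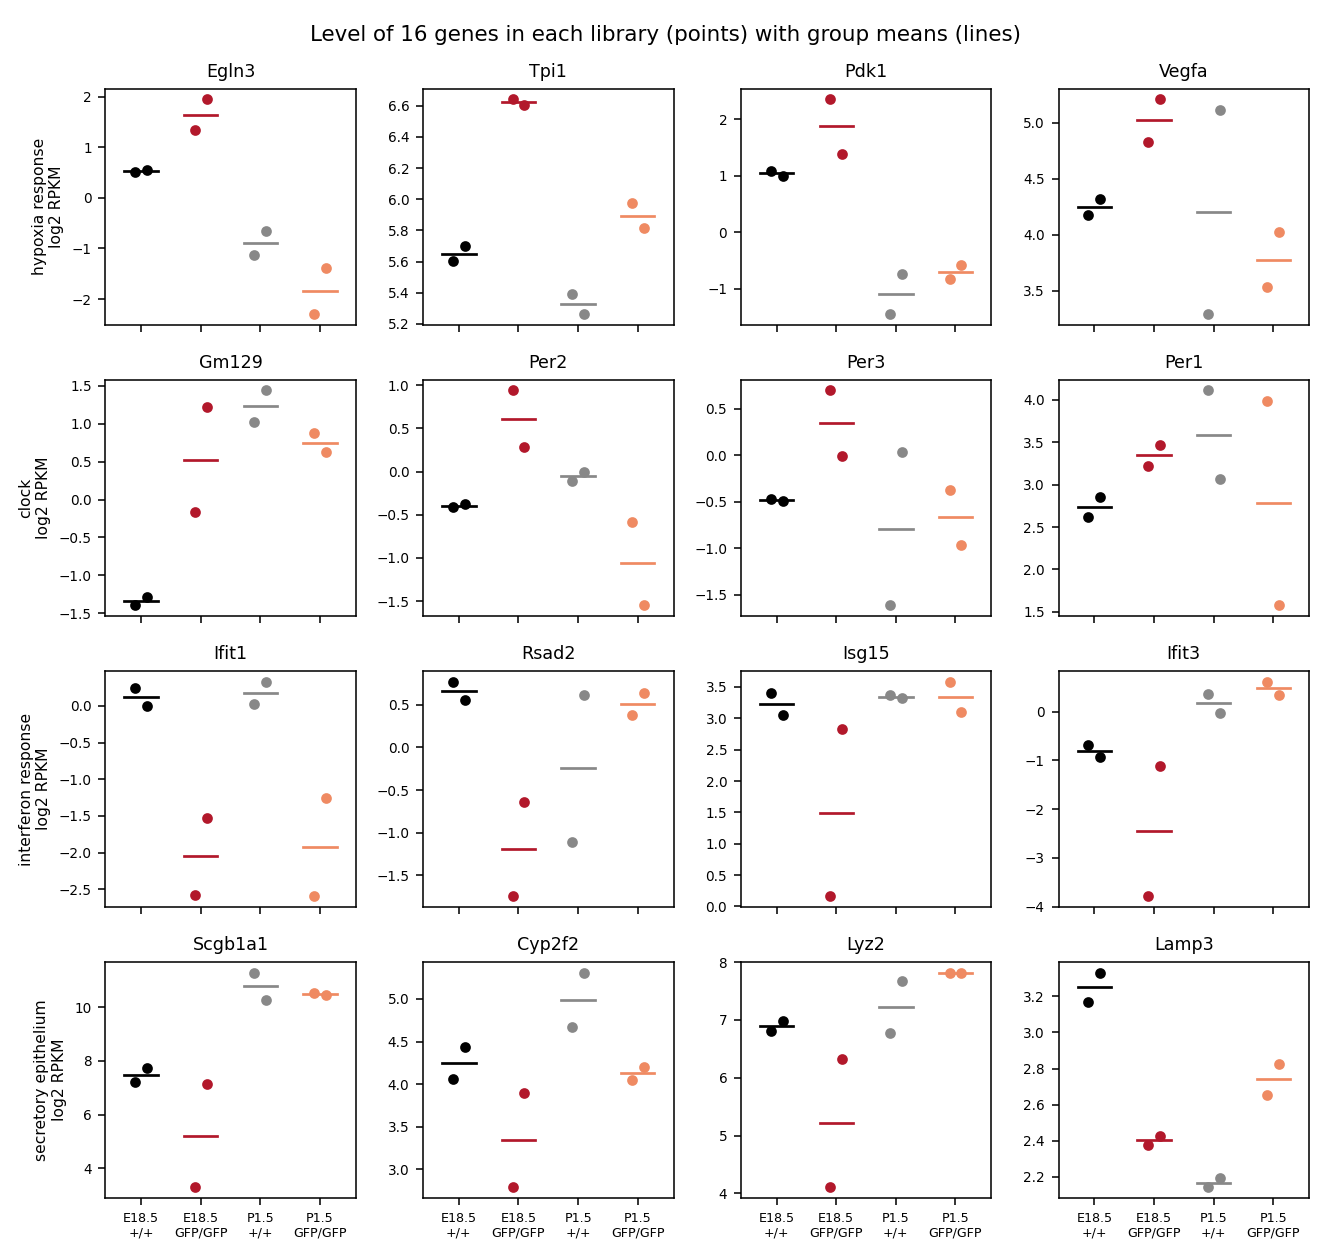
The log2 RPKM of 16 genes is shown for each of the 8 libraries (points) with the mean of each group of 2 (lines), by stage and genotype, in rows for hypoxia, clock, interferon and secretory epithelium. At E18.5 both GFP/GFP points lie above both +/+ points in the upper 2 rows and below them in the lower 2, and most genes do not keep that order at P1.5.

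Genes close to Wfdc2 on chromosome 2 differed about as often as other genes. Of 64 tested genes within 5 Mb, 21 were higher (32.8%) and 6 lower (9.38%), beside 28.1% and 7.64% of 694 genes on the rest of the chromosome. Their median was 0.10, and the differences ran from −1.01 to 2.19. Within 1 Mb, 10 of 31 were higher and 3 lower. In 4 of the 64 the genotypes were apart in the same direction at P1.5, beside 20 of the 694 and 340 of all 9421 genes without Wfdc2.

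Few of the ranked genes kept their direction after birth. At P1.5, 16.2% of all genes were higher and 18.3% lower in both GFP/GFP libraries. Of the 2568 genes higher at E18.5, 235 were higher at P1.5 (9.15%), 705 were lower and 1628 overlapped. Of the 867 lower genes, 106 were lower at P1.5 (12.2%), 164 were higher and 597 overlapped. The 2 stages share no library. In the limma test of the difference between the stages, 0 genes had an adjusted p under 0.05 and 853 an unadjusted p under 0.05, whereas 5 were called without GFP/GFP replicate 2.

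Genes kept in direction at both stages were ordered by the smaller of their 2 differences. Apart from Wfdc2, the largest by this order were Crh and Ifit1. Crh had 121 and 105 against 1175 and 314 reads at E18.5 and 0 and 1 against 5 and 22 reads at P1.5, where its level was near the floor. Ifit1 had a difference of −2.17 at E18.5 and −2.11 at P1.5, with 202 and 224 against 35 and 112 reads at P1.5. Of the other interferon genes named here, Irf9 was lower at P1.5 too (−0.63), while Rsad2, Isg15 and Ifit3 overlapped there, and the median of the list at P1.5 was −0.00. Chad, a matrix protein and club cell marker, differed by −1.52 and −1.57, and Rtkn2 by −0.83 and −2.15. Also among the 10 largest were the heat shock gene Hspa1a (−1.68 and −1.36), the histone gene Hist2h3c2 (−1.67 and −4.09) and the peptide gene Ucn2 (1.66 and 1.51). Wfikkn1, which encodes a secreted protein with WAP and other inhibitor domains (1.54 and 2.05), Gm9843 and 6530403G13Rik complete them. These 10 include Wfdc2 and leave out Rtkn2, which stood lower in this order. At E18.5 Hist2h3c2, Ucn2, Wfikkn1 and Gm9843 had at most 30 reads in a library, and 6530403G13Rik at most 7. The hypoxia list had a median of −0.02 at P1.5 and the acute-phase list of 1.18, with 11 of its 16 members higher. Cyp2f2, Aldh1a1 and Sox2 were lower at both stages, with differences of −0.91 and −0.86, −0.99 and −0.76, and −0.59 and −1.43.

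**Figure D5:**
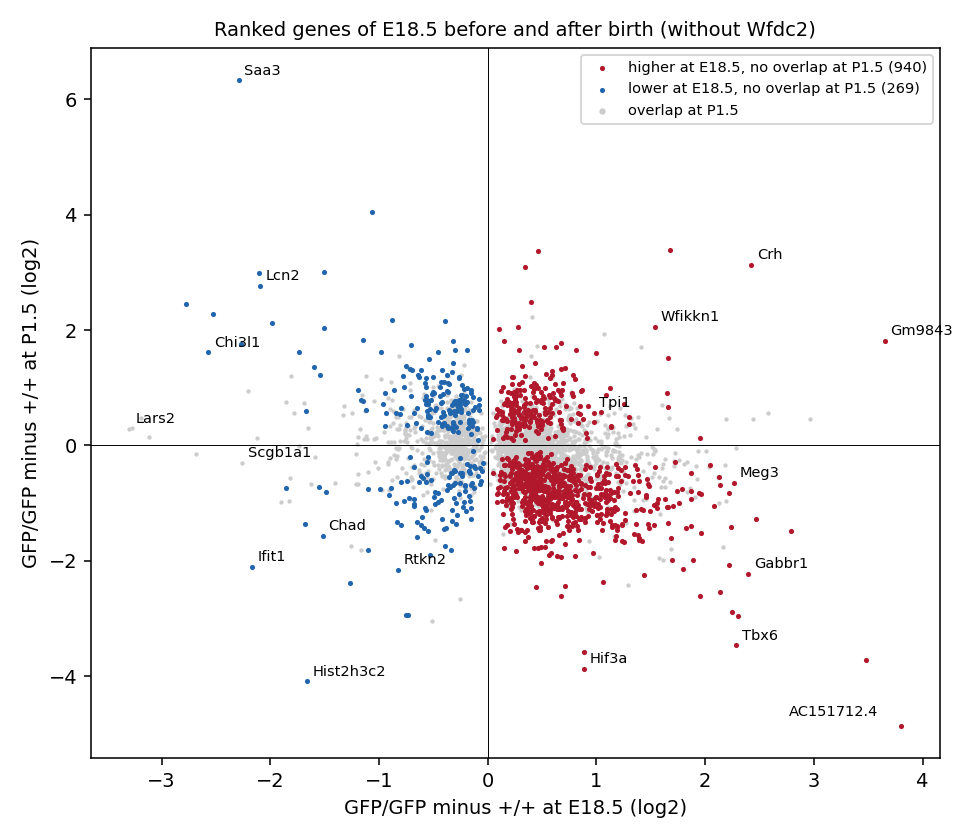
Each point is a gene ranked at E18.5, without Wfdc2, with its difference GFP/GFP minus +/+ (log2) at E18.5 on the x axis and at P1.5 on the y axis. Colour marks genes that do not overlap at P1.5 either, and more of the red points, higher at E18.5, lie below 0 at P1.5 (705) than above it (235).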

How the data were processed

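Total RNA of whole mouse lung was sequenced from 2 animals per genotype and stage (8 libraries) with a directional library kit, on a HiSeq2500 or GAIIx that the sources used here do not assign to libraries. According to the submitters' processing notes, reads were processed with CASAVA 1.8 and Trim Galore 0.4.0 and mapped to mm10 with TopHat2 2.1.1. The authors counted reads per gene in SeqMonk and deposited 1 table of log2 RPKM. The values fit whole reads over the whole span of a gene, introns included, with 0.9 read for a gene without reads, and every value under 500 reads came out whole within 0.02. A long or intron-rich gene therefore has a lower value than per exon length. Whether counting used strand is not given in the sources used here.

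From the table, genes averaging 0.5 RPKM or more across the libraries were kept, and groups were compared with limma 3.58.1 (R 4.3.3): 4 group means on log2 RPKM with no pseudocount, 4 residual degrees of freedom, a trended prior and Benjamini-Hochberg adjustment over 9422 genes. Tables and figures used Python 3.11.15, numpy 2.4.6, pandas 2.3.3 and matplotlib 3.10.9. On simulated E18.5 counts for 9422 genes, the test found 38 of 50 genes given a log2 change of 2 and 50 of 50 given one of 3 at a dispersion of 0.1, with 16 false calls. The simulation gave every gene and library the same dispersion. The real GFP/GFP libraries differed from each other by a median of 0.540 on the log2 scale and the +/+ libraries by 0.128. The simulated shares therefore do not measure how often such changes would be found in these libraries. Nothing in the labels says whether replicates differ beyond being separate samples, so p-values measure the spread between these libraries, which may be partly technical. At E18.5 replicate number goes with sex by Xist and Ddx3y, so that spread also includes the difference between the sexes.

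The ranking rule, gene lists and tests were chosen with earlier results of these data known. Genes could be named if they were Wfdc2, called by the test, among the 15 at either end of the ranking, the most abundant or most different members of a list, the head markers of a cell type, next to the filter, or apart in the same direction at both stages, which gave 319 genes, of which a part is described, and some results are not reported here. Adm, Hif1a, Epas1, Nr1d1, Cry1, Cckar, Stat2, Irf7, Irf9, Ddx58, Slc2a1, Xist, Ddx3y, Gm15564 and Camk1d were taken where they are outside that rule after their values were seen. Alternatives were pseudocounts of 0.1 and 1 RPKM, median centring, quantile normalization, other filters, the replicate block, voom on recovered reads and leaving out each library.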

Additional observations from a re-analysis of the deposited data

Results flagged for a closer look

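Of the 113 genes described, 25 were apart between the genotypes at both stages but in opposite directions: both GFP/GFP libraries lay on one side of both +/+ libraries at E18.5 and on the other side at P1.5. The difference at P1.5 minus that at E18.5 is given on the log2 scale. In limma's test of this difference none of them had an adjusted p under 0.05 (the smallest, 0.0831, were those of Acrbp and Tbx6), although 70 genes of the whole table were called with the replicate block. Such reversals were common over the whole ranking. Of all genes higher at E18.5, 27.5% were lower at P1.5, and of all genes lower at E18.5, 18.9% were higher at P1.5.

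Genes higher at E18.5 and lower at P1.5 had the values −8.67 for AC151712.4, −7.20 for Gm5741, −5.75 for Tbx6, −5.26 for Acrbp, −5.13 for Gm19357, −4.62 for Gabbr1, −4.28 for Rgs11, −3.74 for AI480526 and −2.91 for Meg3. All 9 stood among the 15 highest genes at E18.5. The imprinted genes H19, Igf2 and Airn had −1.93, −1.60 and −2.81. The clock genes Gm129 and Per2 had −2.35 and −2.02, Egln3 had −2.06 and Bcr −0.71.

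Genes lower at E18.5 and higher at P1.5 were defence and secretory genes. Saa3 had 8.62, Il1b 5.22, Lcn2 4.86, Itih4 4.81, Chi3l1 4.18, Lyz1 4.03, Lyz2 2.27, Cxcl15 1.96 and Lamp3 1.42. For Saa3 this joins 225 and 159 against 12 and 126 reads at E18.5 with 489 and 77 against 9766 and 39931 reads at P1.5.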

How the results depend on the processing

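Of 113 genes described, 102 kept the direction of their difference under every alternative run on them. Lower calls by limma were 0 after median centring, 3 with a filter of 0.05 RPKM, 20 with no filter and 4 with voom and the replicate block, and 0 to 5 when 1 library was left out (0 without GFP/GFP replicate 1, and 5 without GFP/GFP replicate 2). Higher calls were 1 after quantile normalization, 2 with no filter, 8 with voom and the replicate block, and 0 to 0 when 1 library was left out. Differences between the stages were called for 2 genes with a pseudocount of 0.1 RPKM, 5 with 1 RPKM and 0 to 5 when 1 library was left out. Genes apart were 4143 higher and 1478 lower at the filter of 0.05 RPKM, 5314 and 2118 with no filter, 1519 and 2178 after median centring, and 1948 lower after quantile normalization. The cause was not tested.

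The replicate block gave 1 higher call, AI480526 (limma adjusted p = 0.0228), and 70 calls between the stages. The labels do not say that a number pairs animals. At E18.5 the number goes with sex, so the block also takes up the difference between the sexes. Deviations of same-numbered libraries had a correlation over genes of 0.269 at E18.5 and 0.359 at P1.5, and of 0.176 at E18.5 without chromosomes X and Y.

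List medians ran over libraries left out from −1.50 to −0.31 for the acute-phase genes, −0.68 to −0.11 for type I, −0.89 to 0.03 for type II, −1.41 to 0.085 for club cells, −1.38 to −0.10 for interferon, 0.069 to 0.87 for proliferation, 0.26 to 0.62 for the clock and 0.43 to 0.53 for hypoxia, which was 0.40 with a pseudocount of 1 RPKM and 0.34 after median centring.

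Genes near 0 changed sign with the library left out. Over these settings the difference ran from −1.25 to 0.26 for Sftpc, −0.91 to 0.52 for Sftpb, −0.66 to 0.095 for Hopx, −2.54 to 0.085 for Scgb3a1, −1.41 to 0.20 for Scgb3a2, −0.19 to 0.11 for Pecam1, −0.29 to 0.36 for Col1a1, −0.14 to 0.20 for Pcna, −0.64 to 0.31 for Hif1a, −1.26 to 1.22 for Nr1d1 and −0.046 to 0.28 for Stat2. Median centring gave −0.15 for Pcna, −0.15 for Col1a1 and −0.064 for Stat2. Quantile normalization gave 0 for Sftpc, 0.25 for Nr1d1 and −0.11 for Stat2, and pseudocounts of 0.1 and 1 RPKM gave 0.057 and 0.11 for Nr1d1.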

Other observations

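Reads of genes known from spermatids were present in the E18.5 +/+ libraries and nearly absent elsewhere. In a search made after the data were seen, 24 genes had at least 6 reads in both E18.5 +/+ libraries and at most 1 in each of the other 6 libraries, beside 2 such genes for E18.5 GFP/GFP, 5 for P1.5 +/+ and 6 for P1.5 GFP/GFP. Protamine 2, Prm2, which packs sperm DNA, had 31 and 17 reads, Prm1 6 and 9, the transition protein Tnp2 8 and 9 and the linker histone H1fnt 38 and 24, all with 0 reads in the other 6 libraries. The 24 genes held 315 and 268 reads in all and were all under the filter. Replicate 1, which had Xist reads and 1 read of Ddx3y, held them as well as replicate 2. Their source was not tested.

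Thyroglobulin, Tg, had 104 and 152 reads in +/+ and 12 and 10 in GFP/GFP lung at E18.5, and was under the filter. It is 1 of 10 thyroid and parathyroid genes, whose summed level was 11.9 and 14.3 RPM in +/+ and 10.1 and 11.9 RPM in GFP/GFP. Calca, the member that passed the filter, was higher, with a difference of 0.37.

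Among neutrophil genes under the filter, Mpo and Prtn3, enzymes of primary granules, which are made early in the lineage, lay opposite to the S100 genes. Of the other enzymes of these granules, Ctsg had 5 and 1 reads in +/+ and 7 and 7 in GFP/GFP, and Elane 1 and 0 against 0 and 5. By contrast, Mmp9, a protease of later granules, had 91 and 99 against 21 and 36.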
